A study of Mus musculus with 12 samples.

Results

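This report describes 10 intermediate filament genes, the keratins Krt7, Krt8, Krt18, Krt19, Krt20, Krt5, Krt14, Krt17 and Krt80 and the vimentin gene Vim, in mouse inner medullary collecting duct (mIMCD3) cells with and without polycystins. The genes were taken by symbol, and each had a row among the 47642 genes listed. RNA from 12 cultures was sequenced, 4 of wild-type cells (Wt), 4 of a Pkd1-/- clone and 4 of a Pkd2-/- clone. All 3 lines descend from tubule cells of healthy mice that carry the SV40 early region (Tg(SV40E)Bri/7), grew in serum-containing medium, and were lysed 4 days after full confluency without further treatment. The age of the source mice was not given in the sources used here. Pkd1 was deleted with CRISPR and Pkd2 with TALENs, and each mutant genotype is 1 clone, so the spread between its 4 dishes does not cover the variation between clones. The 4 dishes sequenced per genotype were those with the highest RNA purity ratios.

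Intermediate filaments are the rope-like part of the cytoskeleton. Keratins build them only as mixed polymers of a type I chain (here Krt14, Krt17, Krt18, Krt19 and Krt20) with a type II chain (Krt5, Krt7, Krt8 and Krt80). Simple epithelia such as renal tubules use Krt8 with Krt18, ducts add Krt7 and Krt19, and basal cells of stratified epithelia use Krt5 with Krt14. Vimentin is a type III chain that assembles without a partner type and is the usual filament of mesenchymal cells. In kidney epithelium its appearance is a long-known feature of injured or dedifferentiated tubules.

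The comparisons asked how each filament gene differed between Wt and each mutant clone and between the clones. Values are normalized counts, that is, read counts divided by a size factor for each library. Each comparison was fitted with limma to log2 of the normalized count plus 1, and a gene is said to have risen or fallen at an adjusted p under 0.05. It is called differentially expressed if its log2 fold change was also at least 1 in size. The libraries held an estimated 23194317 to 30335543 reads on genes. Pkd1 was at 682 to 883 normalized counts in Wt and at 30 to 49 in Pkd1-/-. Pkd2 stayed at 3855 to 4135 in Pkd2-/- against 3438 to 4467 in Wt, and since only some of its exons are deleted, its gene count does not check that label. In Wt 4, the mitochondrial gene mt-Co1 took 1.272% of all normalized counts, the largest share of any gene in any library, and Wt 4 was the lowest Wt library for Krt7, Krt8, Krt18 and Krt19. The share of mt-Co1 was also the largest of its genotype in Pkd1-/- 4 (0.782%) and Pkd2-/- 4 (0.912%). These 2 libraries were the lowest of their genotype for Krt7 and Krt18, but not for Krt19.

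The RefSeq promoter set for GRCm38.p6 held 7 of the 10 genes, with 250 bases before and 50 bases after the annotated start. The promoters of the neighbouring pair Krt18 and Krt8, of Krt7 and of Vim are printed, because these are the most abundant keratins covered by the set and the member with the largest rise. Capitals mark matches on either strand to 4 short motifs. The GC box was searched as GGGCGG, and the TATA box, near which transcription often starts, as TATAAA. The site of AP-1 factors was searched as TGANTCA, with N for any base, and the box bound by NF-Y as CCAAT.
Krt18, type I, chr15:102027966-102028265, plus strand: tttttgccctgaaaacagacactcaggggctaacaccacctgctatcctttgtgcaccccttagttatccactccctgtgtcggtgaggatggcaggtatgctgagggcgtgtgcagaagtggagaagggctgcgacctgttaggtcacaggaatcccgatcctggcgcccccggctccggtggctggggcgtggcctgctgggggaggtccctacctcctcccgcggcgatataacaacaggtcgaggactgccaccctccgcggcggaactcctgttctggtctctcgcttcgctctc
Krt8, type II, chr15:102004293-102004592, minus strand: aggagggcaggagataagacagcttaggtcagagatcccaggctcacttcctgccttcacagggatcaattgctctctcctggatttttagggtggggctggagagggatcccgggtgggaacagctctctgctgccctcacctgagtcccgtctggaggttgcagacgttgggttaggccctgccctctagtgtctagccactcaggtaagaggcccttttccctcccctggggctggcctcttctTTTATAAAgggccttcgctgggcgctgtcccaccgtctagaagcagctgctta
Krt7, type II, chr15:101412153-101412452, plus strand: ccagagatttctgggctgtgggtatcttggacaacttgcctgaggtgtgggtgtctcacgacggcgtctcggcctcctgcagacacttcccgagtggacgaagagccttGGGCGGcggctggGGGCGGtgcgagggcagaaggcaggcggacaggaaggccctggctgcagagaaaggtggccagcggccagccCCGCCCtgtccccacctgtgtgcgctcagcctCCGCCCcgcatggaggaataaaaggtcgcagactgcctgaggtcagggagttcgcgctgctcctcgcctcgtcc
Vim, type III, chr2:13574061-13574360, plus strand: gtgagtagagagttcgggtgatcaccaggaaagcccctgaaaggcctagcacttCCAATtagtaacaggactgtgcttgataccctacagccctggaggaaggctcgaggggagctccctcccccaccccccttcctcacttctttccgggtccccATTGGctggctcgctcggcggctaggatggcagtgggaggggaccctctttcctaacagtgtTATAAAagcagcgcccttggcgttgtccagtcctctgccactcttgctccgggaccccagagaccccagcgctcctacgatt

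The 4 promoters differed in these letters. Krt7 had 4 GC boxes, and Vim had 1 TATA box and 2 NF-Y boxes. Krt8 had a stretch in which TATAAA matched on both strands with overlap, and none of the motifs was found in Krt18. Of all 32851 promoters in the set, 35.7% held the GC box, 13.6% the TATA box, 7.81% the AP-1 site and 37.4% the NF-Y box. GC content was 66.3% for Krt7, 61.3% for Krt18, 59.3% for Vim and 58.0% for Krt8, above the median of 52.7% over the set. The promoter of Krt20 held 1 TATA box, and those of Krt5 and Krt14 held none of the motifs. The RefSeq windows of Krt14, Krt7 and Vim lie wholly inside the genes as bounded in GENCODE M21. For Krt14 the window is chr11:100205981-100206280, minus strand, and the gene runs to 100207548. Other starts of these genes were not searched.

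Krt18 and Krt8 were the leading filament transcripts in every library. Compared per length, as normalized counts per kb of annotated exon, Wt held 13100 ± 1012 for Krt18 (SD, n = 4), 4508 ± 303 for Krt8, 2411 ± 185 for Krt19 and 1218 ± 47.8 for Krt7. Among 18477 genes ranked by this level in Wt, Krt18 was at place 36, Krt8 at 218, Krt19 at 514 and Krt7 at 1269. All other members were far lower, with means per kb in Wt of 17.6 for Krt20, 12.04 for Krt80, 10.96 for Krt17, 7.01 for Vim and 0.284 for Krt14. Krt5 was at 0 in all 12 libraries, which allows up to 3 reads per library by counting error alone. In this order the Wt ranges of neighbours did not overlap, except for Krt80 with Krt17, Krt17 with Vim, and Krt14 with Krt5. The order of the low members depended on the length used. With the length of the principal transcript in place of all exons, Krt80 (21.85 to 29.02 per kb in Wt) lay above Krt20 (16.09 to 20.24). Vim (12.31 to 19.61) then overlapped with Krt20 and averaged 15.16, above the 10.96 of Krt17.

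The order changed in both mutants at the same place. Krt7 stood above Krt19 in each Pkd1-/- library, with 979 to 1012 per kb for Krt7 and 689 to 764 for Krt19. The same held in Pkd2-/-, with 949 to 1114 per kb for Krt7 and 750 to 785 for Krt19. Krt19 dropped from place 514 in Wt to place 2361 in Pkd1-/- and 2277 in Pkd2-/-, whereas Krt18 held place 38 and 24 and Krt8 place 229 and 197. The 10 members together took 0.133 to 0.167% of all normalized counts in every library.

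As shares of the summed keratin level per kb, Krt19 made up 11.3% ± 0.14 in Wt, 3.81% ± 0.15 in Pkd1-/- and 3.27% ± 0.21 in Pkd2-/- (SD, n = 4). Krt18 made up 61.5% ± 0.50, 68.2% ± 0.57 and 71.3% ± 0.31 in the same order. Shares of Krt8 lay between 20.7 and 23.2% in all 12 libraries, and those of Krt7 between 4.36 and 6.09%. The summed type I level was 2.71 ± 0.057 times the summed type II level in Wt, 2.60 ± 0.080 times in Pkd1-/- and 2.93 ± 0.021 times in Pkd2-/-. The Pkd2-/- ratios, 2.90 to 2.95, lay above all Wt and Pkd1-/- ratios. With the length of the principal transcript in place of all exons, Krt19 shares were 12.6, 4.29 and 3.70% and the ratios 2.41, 2.30 and 2.62. These shares and ratios were not tested.

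**Figure D1:**
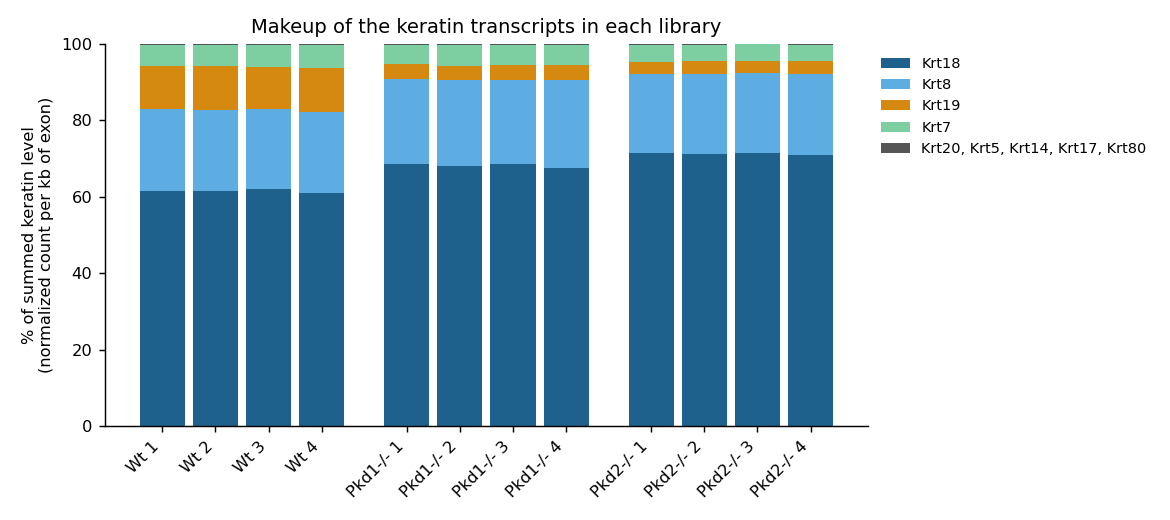
Stacked bars give each keratin's percentage of the summed keratin level (normalized count per kb of exon) in each of the 12 libraries. Krt19 takes 11.13 to 11.45% in the Wt libraries and 3.06 to 4.02% in the mutant libraries, and Krt18 takes the largest share throughout.

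Krt19, the smallest keratin and a marker of ductal epithelium (chr11:100140810-100148665, minus strand), fell in both mutants by a like amount. In Wt it was at 4579, 4850, 4429 and 4030 normalized counts, in Pkd1-/- at 1314, 1278, 1418 and 1306, and in Pkd2-/- at 1392, 1456, 1394 and 1395. No mutant library came near the lowest Wt library, and the mutant groups overlapped. The level was 3.36-fold lower in Pkd1-/- (log2 fold change -1.75, SE 0.055, limma adjusted p = 5.03e-14) and 3.17-fold lower in Pkd2-/- (log2 fold change -1.66, adjusted p = 2.72e-14). Between the clones the log2 difference was 0.09, with a 95% confidence interval from -0.031 to 0.20 (adjusted p = 0.23). For genes whose groups of 4 did not overlap, here and below, the two-sided exact permutation test gave p = 0.0286, the smallest it can give. Without overlap were 27.1% of all genes tested in Pkd1-/- against Wt, 37.2% in Pkd2-/- against Wt and 41.8% between the clones. As RNA came from whole dishes, fewer cells with Krt19 and less Krt19 per cell cannot be told apart, which holds for every gene below.

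Krt18, the type I partner of Krt8 (chr15:102028180-102032027, plus strand), rose in Pkd2-/- and did not pass the test in Pkd1-/-. Wt libraries held 19130, 20229, 19146 and 16780 normalized counts, Pkd1-/- libraries 18835, 18146, 18771 and 18025, and Pkd2-/- libraries 24776, 23312, 25287 and 22185. Every Pkd2-/- library was above every other library. The level in Pkd2-/- was 1.27-fold that of Wt (log2 fold change 0.35, limma adjusted p = 5.5e-05) and 1.29-fold that of Pkd1-/- (0.37, adjusted p = 1.98e-05). Against Wt, Pkd1-/- differed by -0.03 on the log2 scale, with a 95% confidence interval from -0.14 to 0.092.

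The low-level type I keratins moved in different ways. Krt17, a keratin induced in wounded and stressed epithelium, fell in both mutants and lowest in Pkd2-/-. It was at 16, 12, 20 and 20 normalized counts in Wt, at 5, 6, 4 and 4 in Pkd1-/-, and at 2, 0, 1 and 1 in Pkd2-/-. The 3 groups did not overlap. These are about 66, 20 and 4 reads over the 4 libraries of each genotype, and the ratio of reads of Wt to Pkd2-/- was 17.8, with a 95% counting interval from 6.62 to 67.1. In the limma fit, Krt17 fell in Pkd1-/- by 1.63 on the log2 scale (adjusted p = 0.00356) and by 3.25 in Pkd2-/- (adjusted p = 1.6e-06), and the difference between the clones was -1.61 (adjusted p = 0.00205). About 4.0% of its 50-base windows are shared with other keratin genes, mainly Krt14.

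Krt20, a keratin of the gut lining and of superficial urothelial cells, went in opposite directions from Wt in the means of the clones. Its values were 34, 32, 31 and 39 normalized counts in Wt, 41, 49, 43 and 54 in Pkd1-/-, and 23, 28, 18 and 15 in Pkd2-/-. The groups did not overlap. Krt20 fell in Pkd2-/- (log2 fold change -0.70, SE 0.22, limma adjusted p = 0.0129), but without Pkd2-/- 4 the value was -0.56 and the adjusted p = 0.0514. The difference of 0.45 between Pkd1-/- and Wt did not pass (adjusted p = 0.143). From Pkd1-/- to Pkd2-/- the difference was -1.15 (adjusted p = 0.000209).

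Krt14, the type I chain of basal keratinocytes, was at the limit of detection. It passed the filter on low values only through the Pkd1-/- libraries. The values were 0, 0, 0 and 2 normalized counts in Wt, 6, 1, 1 and 3 in Pkd1-/-, and 0, 1, 0 and 0 in Pkd2-/-, which overlap between all groups. The clones were at about 11 and 1 reads, a ratio of 11.1 with a counting interval from 1.62 to 480, and the limma adjusted p for their difference was 0.0478. Without Pkd1-/- 1, or with a minimum mean of 10, Krt14 fell below the filter and was not tested. The call was lost under 10 of the 20 other settings in which Krt14 was tested, among them without each of Wt 1, Wt 2, Wt 3, Pkd1-/- 4, Pkd2-/- 1, Pkd2-/- 3 and Pkd2-/- 4, with adjusted p up to 0.105. Of its 50-base windows, 14.4% are shared with Krt16 or Krt17.

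Among the type II chains, Krt8 (chr15:101996698-102004482, minus strand) stayed closest to Wt. It was at 9069, 9435, 8760 and 8039 normalized counts in Wt, 8335, 8205, 8108 and 8443 in Pkd1-/-, and 9763, 9323, 10017 and 9022 in Pkd2-/-. Both mutant groups overlapped with Wt but not with each other. Krt8 was higher in Pkd2-/- than in Pkd1-/- (log2 fold change 0.20, limma adjusted p = 0.00244). Against Wt the differences of -0.09 in Pkd1-/- (adjusted p = 0.205) and 0.11 in Pkd2-/- (adjusted p = 0.0829) did not pass, though they did without Wt 4 (-0.14, adjusted p = 0.0474) and without Wt 2 or Pkd2-/- 4 (0.15 and 0.14, adjusted p = 0.0325 and 0.0401). Of the 50-base windows of Krt8, 29.7% are shared with other genes, mostly the pseudogene Krt8-ps, whose own values were 371 to 438 in Wt, 360 to 381 in Pkd1-/- and 391 to 448 in Pkd2-/-. The Krt18 to Krt8 ratio per kb was 2.90 ± 0.058 in Wt, 3.04 ± 0.10 in Pkd1-/- and 3.41 ± 0.047 in Pkd2-/- (SD, n = 4). Ratios in Pkd2-/-, 3.35 to 3.46, lay above those of every other library.

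Krt7, the type II chain of ducts (chr15:101411043-101430313, plus strand), fell in both mutants by a small amount. Its values were 8450, 9023, 8648 and 8230 normalized counts in Wt, 6946, 7115, 7135 and 6899 in Pkd1-/-, and 7850, 7033, 7697 and 6688 in Pkd2-/-. All mutant libraries were below all Wt libraries. Krt7 was 1.22-fold lower in Pkd1-/- (log2 fold change -0.29, SE 0.051, limma adjusted p = 0.000238) and 1.18-fold lower in Pkd2-/- (-0.23, adjusted p = 0.00098). The clones differed by 0.06, with a 95% confidence interval from -0.051 to 0.16.

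Krt80, a type II keratin with low levels in many epithelia, was highest in Pkd2-/-. It was at 69, 83, 67 and 89 normalized counts in Wt, at 28, 60, 59 and 76 in Pkd1-/-, and at 153, 124, 133 and 148 in Pkd2-/-. The Pkd2-/- libraries were above all others, and Pkd1-/- overlapped with Wt. Krt80 rose 1.81-fold in Pkd2-/- over Wt (log2 fold change 0.85, limma adjusted p = 0.00431) and was 2.62-fold higher than in Pkd1-/- (1.39, adjusted p = 4.06e-05). In Pkd1-/- the difference from Wt was -0.54 (adjusted p = 0.0871). It was -0.24 without Pkd1-/- 1 and -0.71 without Pkd1-/- 4, where it passed (adjusted p = 0.0249). Exons of Krt80 overlap the opposite-strand gene Gm35853 over 263 bases, those of Krt8 overlap Gm36026 over 101 bases, and those of Krt7 overlap Gm671 over 77 bases. Whether reads were counted by strand was not given in the sources used here, so such genes cannot be told apart over these bases.

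Vim (chr2:13573927-13582826, plus strand) rose in Pkd1-/- and not in Pkd2-/-. Its values were 43, 27, 31 and 32 normalized counts in Wt, 211, 185, 202 and 179 in Pkd1-/-, and 33, 18, 18 and 33 in Pkd2-/-. Every Pkd1-/- library was far above the highest other library, and Wt and Pkd2-/- overlapped. Vim rose 5.77-fold in Pkd1-/- (log2 fold change 2.53, SE 0.22, limma adjusted p = 3.95e-08), and the difference of -0.41 between Pkd2-/- and Wt did not pass (adjusted p = 0.142). Between the clones the log2 fold change was -2.94 (adjusted p = 1.64e-09).

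Vim remained a minor filament transcript in every genotype. Per kb of exon it was at 7.01 ± 1.44 in Wt, 41.0 ± 3.12 in Pkd1-/- and 5.38 ± 1.83 in Pkd2-/- (SD, n = 4), below the midpoint of the 18477 ranked genes in each. The summed keratin level was 3130 ± 691 times the Vim level in Wt, 461 ± 28.5 times in Pkd1-/- and 4771 ± 1716 times in Pkd2-/-. These ratios were 1537, 223 and 2292 with the principal transcript length, since the exons of Vim span 4743 bases and its principal transcript 2193. In Pkd1-/- Vim stood above Krt20, Krt80 and Krt17 per kb of exon, whereas in Wt it stood below Krt20 and Krt80. With the principal transcript length, its Wt range (12.31 to 19.61) overlapped that of Krt20 (16.09 to 20.24).

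Of the fibroblast markers, Postn and Col3a1 rose in Pkd1-/-, as Vim did. The summed level of the 7 fibroblast markers was 75 to 113 normalized counts in Wt, 384 to 413 in Pkd1-/- and 15 to 163 in Pkd2-/-. Among the 6 that could be tested, Postn rose to 286 to 311 normalized counts in Pkd1-/- from 24 to 81 in Wt, and Col3a1 rose to 62 to 69 from 3 to 7. Col1a1, Col1a2, Dcn and Pdgfrb did not pass in Pkd1-/-, with Dcn at 18 to 23 there and 17 to 40 in Wt, Col1a2 at 0 in 3 of the 4 Pkd1-/- libraries, and Pdgfra at 2 or less in every library. No marker of the list was at 0 in all libraries. In Pkd2-/-, Postn fell to 0 to 22. Pdgfrb passed as lower there (limma adjusted p = 0.0269), at 0 against 2, 0, 4 and 4 in Wt. Its groups overlapped, it averaged 1.5 over all libraries, and it passed the filter on low values only through Wt and Pkd1-/-. Over Pkd2-/- 1 to 4, Col3a1 was at 16, 0, 42 and 0 and Col1a1 at 16, 4, 31 and 2. Col1a2 was at 7, 0, 44 and 0 there, Postn at 3, 0, 22 and 1, and Vim at 33, 18, 18 and 33. The upper ends of the Pkd2-/- ranges of Postn and of the summed markers thus come from Pkd2-/- 3 alone. The epithelial markers Cdh1, at 13319 to 14334 in Pkd1-/- and 13291 to 13995 in Wt, and Epcam, at 20366 to 21533 and 20576 to 23947, did not pass the test in Pkd1-/-. The part of other cells in the rise of Vim was not tested, and the markers named here were chosen after their values were seen.

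**Figure D2:**
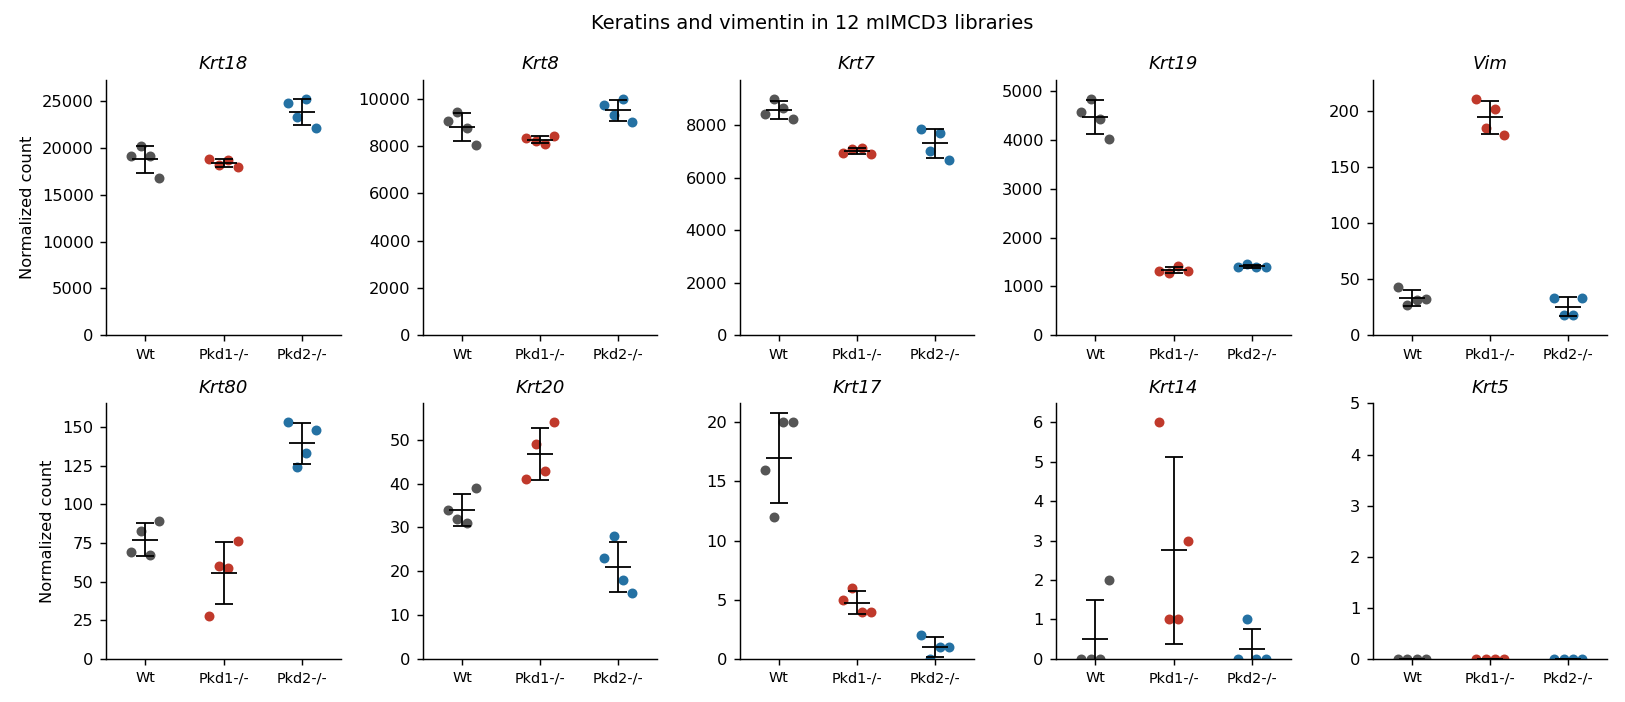
Points give the normalized count of each member in each library, on linear axes that start at 0 and differ between panels, with black bars for the mean and SD of 4 libraries. Krt19 and Krt17 are lower in both mutants than in Wt, Vim is at 179 to 211 only in the Pkd1-/- libraries, and Krt80 and Krt18 are highest in Pkd2-/-.

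Counted over the members, 9 of 10 could be tested, Krt5 being at 0, and 7 of these averaged 10 normalized counts or more. In Pkd1-/- against Wt, 1 member rose (Vim) and 3 fell (Krt7, Krt19 and Krt17), while 13.6% of the 18552 genes tested rose and 13.5% fell, 27.1% in all. In Pkd2-/-, 2 rose (Krt18 and Krt80) and 4 fell (Krt7, Krt19, Krt17 and Krt20), while 20.0% of all genes tested rose and 22.3% fell, 42.3% in all. Between the clones, 3 were higher in Pkd2-/- (Krt18, Krt8 and Krt80) and 4 lower (Vim, Krt17, Krt20 and Krt14, or 3 without Krt14, which was tested only because of its Pkd1-/- values), beside 21.9 and 24.3% of all genes tested, 46.3% in all. Differentially expressed members numbered 3, 2 and 5 in these comparisons, the last being 4 without Krt14, beside 6.24, 9.62 and 11.8% of all genes. Krt7, Krt19 and Krt17 fell in both mutants, which 5.63% of all genes did, and Krt19 and Krt17 were differentially expressed in both, as were 1.63% of all genes in the lower direction. Both of these comparisons share the Wt libraries. Over the 9 tested members the median log2 fold change was -0.09 for Pkd1-/- against Wt, -0.23 for Pkd2-/- against Wt and 0.06 between the clones. Over all genes tested these medians were 0.01, -0.006 and -0.008.

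**Figure D3:**
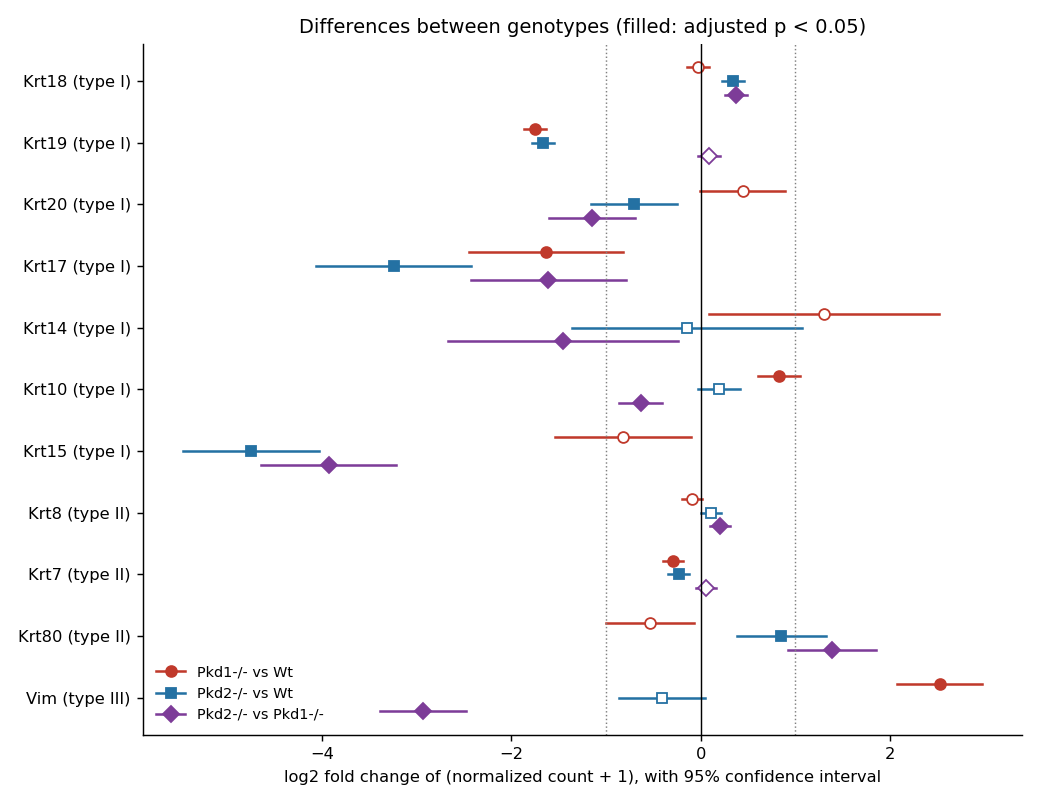
Symbols give log2 fold changes of normalized count + 1 for 9 members and for Krt10 and Krt15, with 95% confidence intervals, in 3 comparisons, filled where the adjusted p is under 0.05. Dotted lines mark a log2 fold change of 1 in size, and the Krt19 symbols of both mutants lie together near -1.7 while those of Vim and Krt15 lie far apart.

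The other 44 keratin genes were nearly silent, with 7 tested and 2 averaging 10 normalized counts or more. Krt15, a type I keratin of basal epithelial cells, was at 57, 60, 60 and 58 normalized counts in Wt, 29, 37, 31 and 35 in Pkd1-/-, and 3, 2, 0 and 1 in Pkd2-/-. The groups did not overlap, and the read ratio of Wt to Pkd2-/- was 40.7, with a 95% counting interval from 18.4 to 112. Krt15 fell in Pkd2-/- (log2 fold change -4.75, limma adjusted p = 1.62e-09), and the difference of -0.82 in Pkd1-/- did not pass (adjusted p = 0.0863) except with pseudocount 5, without Pkd2-/- 3 or in a model of those 2 genotypes alone (adjusted p = 0.00457, 0.0204 and 0.00224). Krt10, a type I keratin of differentiating keratinocytes, was at 249, 233, 208 and 199 normalized counts in Wt, 430, 366, 428 and 358 in Pkd1-/-, and 285, 274, 248 and 213 in Pkd2-/-. It rose in Pkd1-/- alone (log2 fold change 0.83, adjusted p = 7.51e-06), and the difference of 0.19 in Pkd2-/- had an adjusted p of 0.159, or 0.0403 without Pkd2-/- 4. The difference between the clones was -0.64 (adjusted p = 6.42e-05). Between the clones, 1 more keratin passed, Krt87, with a mean of 4.42 normalized counts, 1.41 on the log2 scale higher in Pkd2-/- and named here after its value was seen.

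On chromosome 11 the type I genes Krt15, Krt19, Krt14 and Krt17 lie close together. From the start of Krt19, Krt15 lies 12.7 kb and Krt14 58.9 kb away on either side, Krt17 lies 112.4 kb away on the side of Krt14, and Krt20 and Krt10 lie 710.5 and 759.3 kb away on the side of Krt15. Krt15 and Krt17 were lower in Pkd2-/- than in Pkd1-/- (log2 differences -3.94 and -1.61), whereas for Krt19, which lies between them, the difference between the clones was 0.09. Within 5 Mb of Krt19 lay 200 other genes with means of 10 or more normalized counts, keratins left out, and their median log2 fold changes were 0.03 for Pkd1-/- and -0.02 for Pkd2-/-. On chromosome 15, Krt18 and Krt8 start 23.7 kb apart and Krt7 lies 617.1 kb from Krt18. The 95 genes around Krt18 had medians of 0.002 and -0.10, whereas Krt18 itself was at -0.03 and 0.35. Around Vim, 29 genes had medians of -0.007 in Pkd1-/- and 0.31 in Pkd2-/-, where Vim was at 2.53 and -0.41.

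**Figure D4:**
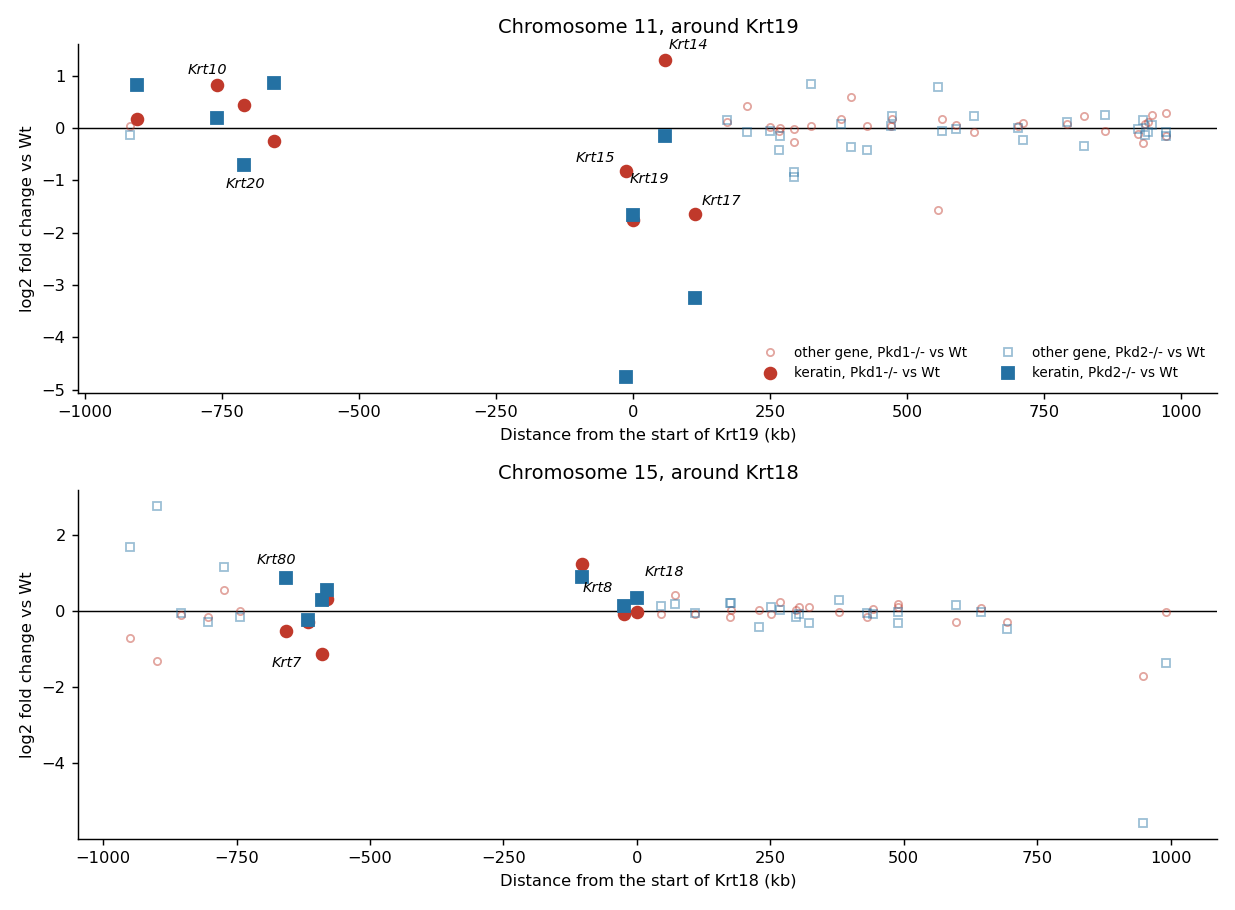
Protein-coding genes within 1 Mb of Krt19 (upper) or Krt18 (lower) that average 10 normalized counts or more, and keratins that average 1 or more, are placed by distance in kb from that gene's start and by log2 fold change against Wt, with circles for Pkd1-/- and squares for Pkd2-/- and filled symbols for keratins. Krt19 has both symbols near -1.7, while Krt15 beside it is at -0.82 and -4.75, and most other genes lie near 0.

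Keratin filaments end at desmosomes, where desmoplakin (Dsp) and the plakin and plakophilin proteins tie them to the cadherins Dsg2 and Dsc2. Of 14 such genes 13 were analysed here and 11 tested, and 2 rose and 4 fell in Pkd1-/- while 3 rose and 3 fell in Pkd2-/-. Their median log2 fold changes were 0.01 and -0.01. Of all genes tested, 27.1% rose or fell in Pkd1-/- and 42.3% in Pkd2-/-. Dsp was at 3288, 2848, 2919 and 3008 normalized counts in Wt, 576, 735, 685 and 699 in Pkd1-/-, and 7066, 7738, 6936 and 8573 in Pkd2-/-. Its log2 fold change was -2.16 for Pkd1-/- and 1.33 for Pkd2-/-, both passing, with a difference of 3.49 between the clones (limma adjusted p = 5.12e-17). Dsg2 fell in Pkd1-/- (319 to 348 against 826 to 895 in Wt), and so did Dsc2 (203 to 282 against 544 to 585). In Pkd2-/- Dsc2 rose to 659 to 725, and Dsg2, at 877 to 1041, did not pass. The plakin Ppl rose in both mutants, from 4468 to 5137 in Wt to 5245 to 6244 in Pkd1-/- and 6565 to 7749 in Pkd2-/-. Evpl and Pkp3 fell in Pkd2-/- by 0.46 and 0.37 on the log2 scale and did not pass in Pkd1-/-.

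At hemidesmosomes, which tie keratins to the basement membrane, 3 of 6 genes rose and 1 fell in Pkd2-/-, and 1 fell in Pkd1-/-. Their medians were 0.16 and -0.13, and the shares of all genes tested that rose or fell were 42.3 and 27.1% in the same order. Plec, the plectin gene, was at 7468 to 9605 normalized counts in Pkd2-/- against 4911 to 5790 in Wt (log2 fold change 0.65, limma adjusted p = 1.99e-06) and at 4043 to 5150 in Pkd1-/-, where it did not pass. The integrin gene Itga6 rose in Pkd2-/- by 0.63 on the log2 scale, while its partner Itgb4 fell by 0.34. The Dst call in Pkd2-/- (0.37, adjusted p = 0.0418) and the Itgb4 call in Pkd1-/- (-0.17, adjusted p = 0.0445) were each lost under 10 other settings. For Dst these included leaving out Wt 1, 2 or 4, Pkd1-/- 2 or 3, or Pkd2-/- 3 or 4, and for Itgb4 leaving out Wt 2, 3 or 4, Pkd1-/- 1, 2 or 3, or Pkd2-/- 1 or 2, with adjusted p up to 0.145 and 0.148.

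**Figure D5:**
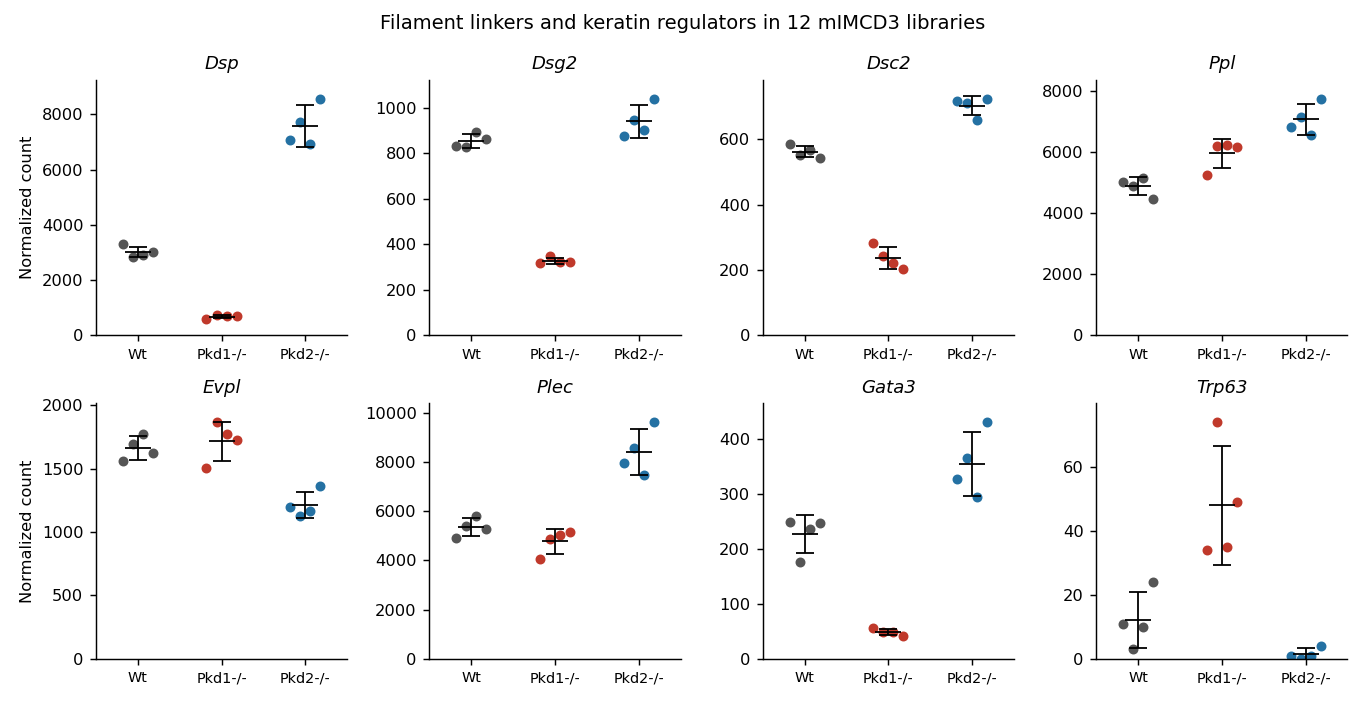
Points give normalized counts in each library for 6 genes that link keratins to junctions and for the transcription factors Gata3 and Trp63, on linear axes from 0, with black bars for mean and SD of 4 libraries. Dsp, Dsg2, Dsc2 and Gata3 are lowest in Pkd1-/-, and Trp63 is highest there.

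Among 15 transcription and splicing factors of epithelial identity, 4 rose and 5 fell in Pkd1-/-, and 6 rose and 5 fell in Pkd2-/-. Their medians were 0.04 and -0.05, and the shares of all genes tested that rose or fell were 27.1 and 42.3% in the same order. Trp63, the p63 gene of basal epithelial cells and an activator of Krt5 and Krt14, was at 11, 3, 10 and 24 normalized counts in Wt, 34, 74, 35 and 49 in Pkd1-/-, and 1, 0, 1 and 4 in Pkd2-/-. Trp63 rose in Pkd1-/- (log2 fold change 2.12, limma adjusted p = 0.00433) and fell in Pkd2-/- (read ratio of Wt to Pkd2-/- 8.25, interval from 3.52 to 23.6). Gata3, a collecting duct and urothelial factor, fell from 176 to 248 in Wt to 42 to 56 in Pkd1-/- and rose to 294 to 430 in Pkd2-/-. Grhl3, a factor of epithelial barrier formation, rose to 157 to 189 in Pkd1-/- from 59 to 87 in Wt. Ovol2, a repressor of mesenchymal genes, fell by 1.06 on the log2 scale in Pkd2-/- and by 0.41 in Pkd1-/-, a call lost under 5 other settings that each left out 1 library, Wt 1, 2 or 4 or Pkd1-/- 2 or 4. Its relative Ovol1 rose by 1.00 in Pkd2-/-. Foxa1 fell in both mutants, by 0.31 and 0.84 on the log2 scale.

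Of 14 other intermediate filament genes 8 were tested, and 3 rose and 1 fell in Pkd1-/-, 1 rose and 2 fell in Pkd2-/-. Their medians were 0.09 and -0.13, and the shares of all genes tested that rose or fell were 27.1 and 42.3% in the same order. Synm, which encodes synemin, a partner of vimentin and desmin, fell in both mutants, from 65 to 99 normalized counts in Wt to 22 to 39 in Pkd1-/- and 24 to 51 in Pkd2-/-. The lamin gene Lmna rose in Pkd1-/- from 4121 to 4692 in Wt to 5613 to 5984, and Lmnb2 rose in both mutants by 0.25 and 0.18 on the log2 scale. Lmnb1 fell in Pkd2-/- by 0.17 on the log2 scale. Of 10 chaperones, ligases and kinases that act on filaments, 9 were tested, and 3 rose and 1 fell in Pkd1-/- while 5 rose and 1 fell in Pkd2-/-. Their medians were 0.09 and 0.20, beside the same shares of 27.1 and 42.3% of all genes. The small heat shock gene Hspb1 rose in Pkd1-/- (1623 to 1827 against 1202 to 1506 in Wt) and fell in Pkd2-/- (720 to 843). Dnajb6, a chaperone that binds keratins, moved the opposite way, by -0.29 and 0.20 on the log2 scale. Tchp, which encodes the keratin-binding protein trichoplein, rose in Pkd1-/- by 0.37. The kinase gene Aurkb rose in both mutants, by 0.22 and 0.20, and in Pkd2-/- the kinase gene Rock1 and the 14-3-3 gene Sfn rose by 0.33 and 0.29, of which the Rock1 call was lost under 6 other settings, among them without Wt 2, Wt 3, Pkd2-/- 2 or Pkd2-/- 4 (adjusted p up to 0.128).

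The genes with the most similar patterns over the 12 libraries, by the root mean square difference of centred log2 values over 13703 genes, were found for the 4 members with the largest range of genotype means among those averaging 10 normalized counts or more. For Vim they were Antxr1 (0.29), Tnfrsf9 (0.31) and Zfp750 (0.38), and for Krt19 they were Foxred2 (0.13), Spp1 (0.15) and Aadat (0.16). Spp1, the osteopontin gene, was at 3866 ± 247 normalized counts in Wt, 1018 ± 80.1 in Pkd1-/- and 1027 ± 38.3 in Pkd2-/- (SD, n = 4). Krt80 was most like Chpf2 (0.24), Stard9 (0.25) and Ndst1 (0.25), and Krt20 most like Sirt4 (0.17), AI429214 (0.20) and 4933404O12Rik (0.20).

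Against the labelled cell type, 11 of 15 collecting duct markers averaged 10 normalized counts or more. Aqp2, the water channel of principal cells, and Foxi1, the factor of intercalated cells, were at 0 in all 12 libraries. Aqp3 and Elf5 averaged 1.83 and 2.08. Of 13 tested, 1 rose (Elf5, tested only because of its Pkd1-/- values) and 4 fell in Pkd1-/-, and 9 rose and 1 fell in Pkd2-/-. The shares of all genes tested that rose or fell were 27.1 and 42.3%. Apart from its 2 keratins, the collecting duct list summed to 51558 to 54664 in Wt, 47238 to 48716 in Pkd1-/- and 56448 to 58287 in Pkd2-/-. The summed urothelial markers other than Krt20 and Krt5 were at 513 to 647, 296 to 342 and 321 to 397 in the same order. Most of this difference was Upk3a, which fell from 324 to 405 in Wt to 103 to 136 in Pkd1-/- and 140 to 174 in Pkd2-/-. Upk3b passed as lower in Pkd1-/- only, and Upk1a, Upk1b and Upk2 did not pass in either mutant. Of the basal squamous markers, those other than keratins summed to 3 to 24 in Wt, 34 to 74 in Pkd1-/- and 0 to 4 in Pkd2-/-, which is mostly Trp63. Leukocyte markers summed to 55 to 74 in every library, mostly Cd68 at 47 to 69, with Adgre1 and Cd3e at 0 in all 12 libraries. Endothelial markers summed to 9 or less in every library. The part of such cells in the keratin differences was not tested. Single markers named in this paragraph were chosen after their values were seen.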

How the data were processed

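RNA-seq libraries of total RNA were sequenced for 12 cultures. Per the submitters' processing notes and the methods, the authors used Trim Galore for trimming, HISAT2 for alignment to GRCm38 (mm10), HTSeq for counts per gene and DESeq2 for size factors. The deposited values are scores in the sense of normalized counts rounded to whole numbers by the authors, not read counts, so limma was used in place of a count model. Exact reads could not be recovered for all genes, and reads per library were estimated from the whole numbers each column skips or repeats. All 12 columns were used, 0 were left out, and 0 pairs of libraries were identical. Replicates were dishes of 1 line, so p-values measure the spread between dishes.

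Differences were tested in R 4.3.3 with limma 3.58.1 (lmFit, eBayes with a variance trend, two-sided, Benjamini-Hochberg) on log2(value + 1), with all 12 libraries in 1 model, for 18552 genes with a mean of at least 1. A fold change on this scale understates the change of low genes. The test was checked on simulated data. Positions and exon lengths come from GENCODE M21, which holds 47223 of the gene identifiers and lacks 419. Promoters come from RefSeq. The script language was Python 3.11.15. Counting intervals are 95% and cover the error of counting alone, because no molecular identifiers show which reads stem from the same molecule.

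The members and gene lists were chosen with earlier results of these data known. Named genes were the members, Pkd1 and Pkd2, other keratins with a mean of at least 10, and from each list up to 4 passing genes with the largest change per comparison with Wt and such a mean. The 3 genes most like each of 4 members were also named. Other names are marked as chosen afterwards. Alternatives were other pseudocounts, filters, scalings, variance models, a replicate block, transcript lengths and leaving out each library.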

Additional observations from a re-analysis of the deposited data

Results flagged for a closer look

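Several differences from Wt were not the same in both clones, as the direct comparison of Pkd2-/- with Pkd1-/- in limma passed at a log2 size of at least 1. Higher in Pkd2-/- were Krt80 (1.39), Dsp (3.49), Dsg2 (1.52), Dsc2 (1.57) and Gata3 (2.84). Lower in Pkd2-/- were Vim (-2.94), Krt17 (-1.61), Krt20 (-1.15), Krt14 (-1.45, the call described above as lost under other settings), Krt15 (-3.94), Trp63 (-4.46), Grhl3 (-1.67) and Hspb1 (-1.11). Each genotype is 1 clone, so genotype and clone cannot be told apart in these differences.

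In 10 of 120 groups of 4 libraries, 1 library lay far from the other 3, where chance flags about 1 in 20 groups, here 6. None of the 10 passed after adjustment for the number of groups. Among the members these were Krt19 in Pkd2-/- 2 (1456 normalized counts), Krt14 in Wt 4 (2) and Krt14 in Pkd2-/- 2 (1). Among the other genes they were Dsg2 in Pkd1-/- 2 (348), Hspb1 in Pkd1-/- 3 (1827), Ppl in Pkd1-/- 1 (5245), Foxa1 in Pkd2-/- 4 (1372), Lmnb2 in Pkd2-/- 1 (1758), Gata3 in Wt 2 (176) and Sfn in Wt 2 (506).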

How the results depend on the processing

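Over the members' 3 comparisons and up to 22 other settings, 568 of 585 values kept their side of the threshold, 11 lost a call, 6 gained one and 0 reversed with a call. Small differences without a call could change sign, as for Krt14 in Pkd2-/- against Wt (-0.146, but 0.25 without Wt 4). The numbers of differentially expressed members were 3, 2 and 5 in Pkd1-/- against Wt, Pkd2-/- against Wt and Pkd2-/- against Pkd1-/-. With a minimum mean of 10, which drops Krt14 and Krt17, they were 2, 1 and 3. Without Pkd1-/- 1, Krt14 was not tested. With pseudocount 5 the last was 3, and with no fold change threshold Pkd2-/- against Wt gave 6, of which 2 were higher and 4 lower. Without any 1 library, the 3 numbers ranged from 3 to 4, 2 to 2 and 4 to 5.

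With the replicate number as a block the counts were 3, 2 and 4, with Krt14 lost between the clones (adjusted p = 0.06). The labels give the same numbers to each genotype without saying what they share. Correlations of same-numbered libraries' deviations ran from -0.073 to 0.2, and the numbers were not taken as pairs in the main model. For each 2 genotypes, the libraries numbered 4 had the highest correlation of any pair. It was 0.088 for Wt with Pkd1-/-, 0.2 for Wt with Pkd2-/- and 0.167 for the clones. What the libraries numbered 4 share was not tested. Median-of-ratios scaling moved libraries by factors of 1.003 to 1.006 and upper-quartile scaling by 0.986 to 1.018. Lengths and ratios with the longest coding and principal transcripts, and ratios leaving out each library, were chosen after seeing the data. Depth limits Krt14, Krt17, Krt15 and Trp63, where a genotype holds few reads.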
